A study of Mus musculus with 9 samples.

Results

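The smooth muscle contractile genes described here were 10 genes whose proteins build or regulate the contractile apparatus of smooth muscle, namely Acta2, Actg2, Myh11, Myl9, Mylk, Tagln, Cnn1, Smtn, Des and Synpo2. They were taken by the gene symbol that the array platform's annotation gives each probe, which found 24 probes of 45281 on the array. A probe counted as above background on an array where its detection p-value was under 0.05. At least 3 of the 9 arrays had to show this, which 15 probes in 8 of the 10 genes met, and those 8 genes were tested among 11537 genes in all. The other 2 genes, Cnn1 and Synpo2, did not pass that filter.

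RNA was measured on 1-colour Illumina arrays in 9 whole pancreas tumours of mice that developed them spontaneously. The 3 Twist cKO tumours are labelled KPC;TwistcKO and the 3 Snail cKO tumours KPC;SnailcKO, set against 3 tumours labelled KPC, so that all 3 groups share the KPC genotype. Per the series' design, Twist or Snail expression is missing from the pancreas of the cKO mice and intact in KPC mice. That text speaks of 2 mice for each group, whereas the labels list 3 separately numbered mice for each, and all 9 were used. KPC is the usual name of a mouse model of pancreas cancer in which Cre recombinase acts in the epithelial lineage of the pancreas. The Cre driver, the alleles and the ages are not given in the sources used here. In the usual form of this model the stromal and muscle cells of the tumour do not carry the deletion.

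Smooth muscle contracts when calcium and calmodulin activate myosin light chain kinase, which phosphorylates the myosin regulatory light chain so that smooth muscle myosin can pull on actin filaments. Most genes of this apparatus are switched on by serum response factor (SRF) with its partners myocardin and the myocardin-related factors, through a DNA element called the CArG box. In a pancreas tumour these genes are not read from vessel and gut muscle alone, because activated fibroblasts and stellate cells also make Acta2, Tagln and Myl9, and pericytes and stellate cells make Des. In a bulk sample fewer cells of a type and less RNA per cell cannot be told apart, which holds for every value below.

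The promoters of 7 of the 10 genes were found in the RefSeq table (build GRCm38.p6), each running from 250 bases before to 50 bases after the gene start. Those of Actg2, Tagln and Myh11 were not among the matches. Each was searched for the CArG box, CCNNNNNNGG with every N an A or a T, which reads alike on both strands, and for the same letters with 1 substitution in the core of 6. An exact match stood in 535 of the 32851 listed promoters (1.63%), and a match with up to 1 substitution in 3280 (9.98%). The 250 upstream bases of Acta2 and Myl9 are printed because they were the members with a match, and those of Des because it had none. Capitals mark the matches, and the sequences run 5′ to 3′ on the gene's strand, at chr19:34255374-34255623 (minus strand) for Acta2, chr2:156775214-156775463 (plus strand) for Myl9 and chr1:75360042-75360291 (plus strand) for Des.
Acta2: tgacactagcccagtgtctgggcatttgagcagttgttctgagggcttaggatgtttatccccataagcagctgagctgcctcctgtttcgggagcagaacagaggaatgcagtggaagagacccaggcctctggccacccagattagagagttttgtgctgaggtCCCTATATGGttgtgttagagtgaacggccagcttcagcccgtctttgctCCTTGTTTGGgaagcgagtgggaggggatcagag
Myl9: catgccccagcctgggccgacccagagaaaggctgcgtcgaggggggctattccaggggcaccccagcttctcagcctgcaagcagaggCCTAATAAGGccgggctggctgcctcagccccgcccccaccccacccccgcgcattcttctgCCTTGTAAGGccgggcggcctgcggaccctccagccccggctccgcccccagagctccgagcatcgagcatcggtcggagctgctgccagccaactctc
Des: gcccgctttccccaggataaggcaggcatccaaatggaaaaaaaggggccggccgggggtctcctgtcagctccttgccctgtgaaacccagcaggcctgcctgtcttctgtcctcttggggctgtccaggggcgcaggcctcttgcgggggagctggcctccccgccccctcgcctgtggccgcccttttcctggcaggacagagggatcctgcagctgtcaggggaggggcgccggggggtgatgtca
Acta2 held CCCTATATGG beginning 84 bases before its start (-84) and CCTTGTTTGG at -34, each with 1 substitution. Myl9 held an exact match, CCTAATAAGG, at -161 and CCTTGTAAGG with 1 substitution at -99. No match lay within these windows of Cnn1, Des, Smtn, Mylk and Synpo2, which says only that these letters are not there.

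Between 16707 and 19606 probes were detected per array (36.9% to 43.3%). The lowest number was that of Snail cKO replicate 2, and the next lowest, in Twist cKO replicate 2, was 18864 (41.7%). Low values in Snail cKO replicate 2 are to be read with that limit. Of the targeted genes, Twist1 averaged 4.83 ± 0.35 in Twist cKO tumours and 7.97 ± 1.06 in KPC tumours on the log2 intensity scale (SD, n = 3 each). Every Twist cKO tumour lay below every KPC tumour, with an exact permutation p of 0.1, the smallest that 3 against 3 tumours can give (limma adjusted p = 0.978). Twist1 was above background in 1 of 3 Twist cKO tumours, so the size of this difference depends on the background level. Snai1, the gene of Snail, averaged 7.06 ± 0.88 in Snail cKO tumours and 7.42 ± 0.51 in KPC tumours (exact permutation p = 0.6), so the library labels of the Snail cKO group are not borne out by this probe, whose place relative to the deleted part is not known here. The arrays also fell into 2 sets by their median raw signal, which was 99.1 to 107.2 on all KPC arrays and on replicate 3 of either cKO group (array set 1), against 115.4 to 125.4 on the other 4 cKO arrays (array set 2). No label names these sets. In Twist cKO replicate 2 the keratin and junction genes of epithelium lay far below the other tumours (median deviation from the 9-tumour mean -5.51, against -2.74 to 1.62 elsewhere) and adipocyte genes far above (4.65, against -1.71 to 1.44). Its Krt8, an epithelial keratin, was 5.05, against 9.52 to 13.97 in the other 8 tumours, so this library had low levels of markers that define a pancreas carcinoma. The next lowest median of the epithelial genes, -2.74, was that of KPC replicate 1, and the remaining tumours had 0.30 or more.

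**Figure D1:**
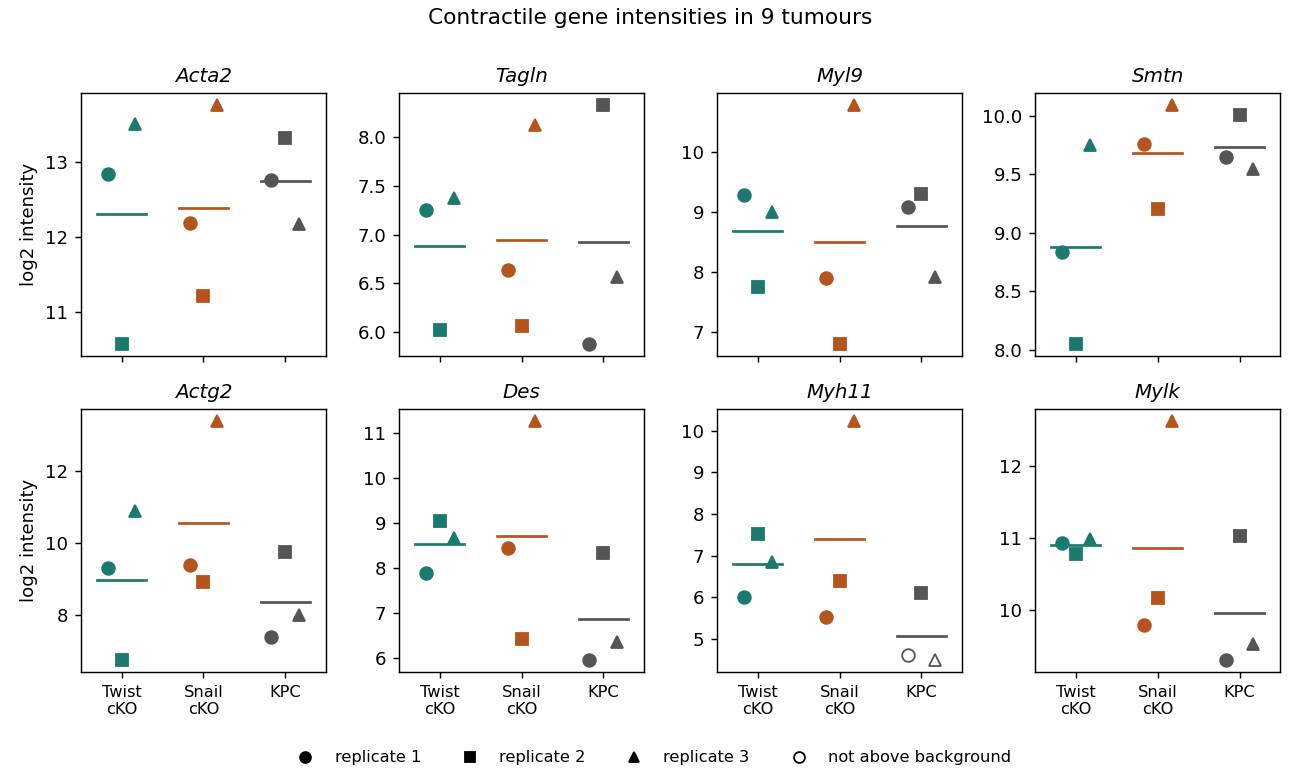
Log2 normalized intensity (vertical axis, a separate scale for each gene) of the 8 contractile genes tested, in the 3 Twist cKO, 3 Snail cKO and 3 KPC tumours (points, with the shape giving the replicate and an open point a probe not above background) and the group mean (line). Snail cKO replicate 3 is the highest tumour for 7 of the 8 genes, and no gene has groups that do not overlap.

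Of the smooth muscle actins, Acta2, alpha smooth muscle actin, had log2 intensities of 12.84, 10.56 and 13.50 in Twist cKO replicates 1 to 3, of 12.19, 11.21 and 13.76 in the Snail cKO replicates, and of 12.76, 13.32 and 12.17 in the KPC replicates. Twist cKO replicate 2 was the lowest tumour and Snail cKO replicate 3 the highest, and the 3 groups overlapped. Actg2, the gamma actin of gut and other visceral smooth muscle, had 9.30, 6.73 and 10.88 in the Twist cKO tumours, 9.38, 8.91 and 13.39 in the Snail cKO tumours, and 7.37, 9.73 and 7.98 in the KPC tumours. It had the widest range of the 8 genes, 6.66 on the log2 scale, with the same tumours at either end as for Acta2. The value in Snail cKO replicate 3 lay 5.69-fold above the next tumour, Twist cKO replicate 3.

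The myosin genes did not vary in 1 pattern. Myh11, the smooth muscle myosin heavy chain and the member most restricted to smooth muscle, had 6.00, 7.53 and 6.85 in the Twist cKO tumours, 5.54, 6.40 and 10.24 in the Snail cKO tumours, and 4.63, 6.11 and 4.49 in the KPC tumours. It was above background in 3 of 3 Twist cKO, 3 of 3 Snail cKO and 1 of 3 KPC tumours, and Snail cKO replicate 3 stood 6.55-fold above the next, Twist cKO replicate 2. Myl9, the myosin regulatory light chain, had 9.29, 7.74 and 9.00 in the Twist cKO tumours, 7.90, 6.79 and 10.79 in the Snail cKO tumours, and 9.08, 9.30 and 7.91 in the KPC tumours. The lowest and the highest tumour for Myl9 were therefore both Snail cKO tumours, replicates 2 and 3. Mylk, myosin light chain kinase, had 10.93, 10.77 and 10.98 in the Twist cKO tumours, 9.79, 10.16 and 12.63 in the Snail cKO tumours, and 9.30, 11.03 and 9.53 in the KPC tumours. The 3 Twist cKO values lay within 0.21 of each other (SD 0.11), a narrower spread than in Snail cKO tumours (SD 1.54) or KPC tumours (SD 0.94), and KPC replicate 2 lay above all of them.

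Of the proteins that bind the thin filament, Tagln and Smtn were measurable. Tagln, transgelin, an actin-binding protein of smooth muscle and activated fibroblasts, had 7.25, 6.02 and 7.38 in the Twist cKO tumours, 6.64, 6.07 and 8.13 in the Snail cKO tumours, and 5.87, 8.33 and 6.57 in the KPC tumours. It was the member whose highest tumour was not Snail cKO replicate 3 but KPC replicate 2. Smtn, smoothelin, a marker of contractile smooth muscle, had 8.83, 8.04 and 9.75 in the Twist cKO tumours, 9.76, 9.21 and 10.09 in the Snail cKO tumours, and 9.64, 10.01 and 9.54 in the KPC tumours. Its range over the 9 tumours, 2.05, was the narrowest of the 8 genes, and Twist cKO replicates 1 and 2 lay below the other 7 tumours. Cnn1, calponin, which binds actin and restrains the myosin motor, was above background on 1 array, that of Snail cKO replicate 3, with a raw signal of 126.3 there and 91.6 to 112.7 on the others.

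Des, desmin, the intermediate filament protein of muscle cells, had 7.89, 9.05 and 8.67 in the Twist cKO tumours, 8.45, 6.43 and 11.28 in the Snail cKO tumours, and 5.95, 8.34 and 6.35 in the KPC tumours. Snail cKO replicate 3 lay 4.69-fold above Twist cKO replicate 2, the next tumour, and the lowest values were those of KPC replicates 1 and 3. Synpo2, myopodin, an actin-bundling protein of muscle, was above background on 0 of 9 arrays with either of its 2 probes, whose raw signals reached 114.7. A signal at background puts an upper limit on the level of Cnn1 and Synpo2 but does not show that they were absent.

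Against KPC, 0 of the 8 genes tested differed in Twist cKO tumours, at a Benjamini-Hochberg adjusted p under 0.05 in limma, where 0% of all 11537 genes passed. Myh11 averaged 6.79 ± 0.77 in Twist cKO tumours and 5.07 ± 0.90 in KPC tumours, a difference of 1.72 (SE 1.11, 95% interval -0.81 to 4.24, adjusted p = 0.978). Since 2 of the 3 KPC tumours were at background for Myh11, the size of this and of each later difference of Myh11 from KPC depends on the background level. Des averaged 8.53 ± 0.59 and 6.88 ± 1.28 in the same order (SD, n = 3 each), a difference of 1.65 (SE 1.13, 95% interval -0.92 to 4.23). Smtn was the member with the smallest unadjusted p of this comparison (0.0861), with 8.87 ± 0.85 in Twist cKO tumours and 9.73 ± 0.24 in KPC tumours, a difference of -0.86 (SE 0.44). The differences of the other 5 genes lay between -0.45 for Acta2 and 0.94 for Mylk, and each interval held 0. The mean was higher in Twist cKO tumours for 4 of the 8 genes, against 43.7% of all genes, and the median difference of the 8 was 0.28, against -0.07 over all genes. Of the 8, 0 had groups that did not overlap, where 8.06% of all genes had, and 0 had an unadjusted p under 0.05, where 3.55% of all genes (409) had.

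In Snail cKO tumours 0 of the 8 genes differed from KPC by the same test, where 0% of all genes passed. Myh11 averaged 7.40 ± 2.50 in Snail cKO tumours and 5.07 ± 0.90 in KPC tumours, a difference of 2.32 (SE 1.11, 95% interval -0.21 to 4.85, limma adjusted p = 1.00, exact permutation p = 0.2). Actg2 averaged 10.56 ± 2.46 and 8.36 ± 1.22 in the same order, a difference of 2.20 (SE 1.38), and Des 8.72 ± 2.43 and 6.88 ± 1.28, a difference of 1.84 (SE 1.13). The differences were 0.91 for Mylk (SE 0.74), 0.02 for Tagln, -0.05 for Smtn, -0.27 for Myl9 and -0.36 for Acta2, all smaller than the spread within either group. The mean was higher in Snail cKO tumours for 5 of the 8 genes, against 46% of all genes, and the median difference was 0.46, against -0.04 over all genes. Groups without overlap occurred in 0 of the 8 and in 8.69% of all genes, and unadjusted p-values under 0.05 in 0 of the 8 and in 2.7% of all genes (311).

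These Snail cKO means rested on replicate 3. Without it the difference from KPC was 0.89 for Myh11, 0.79 for Actg2, 0.56 for Des and 0.03 for Mylk, and it was -1.42 for Myl9, -1.06 for Acta2, -0.57 for Tagln and -0.25 for Smtn. The median of the 8 was then -0.11. With array set as a block the median was instead 1.44, with Actg2 at 4.57, Myh11 at 3.77, Des at 3.18 and Mylk at 1.84 (limma adjusted p = 1.00 for each). Within array set 1, which compares Snail cKO replicate 3 alone with the 3 KPC tumours, it was 2.35, with Myh11 at 5.16 (limma adjusted p = 0.732, the lone tumour being assumed to vary like the KPC tumours). The block is estimated from the cKO tumours alone and so draws on the gap between Snail cKO replicate 3 and replicates 1 and 2, and the 2 cannot be told apart. Under every setting run, Actg2, Des, Myh11 and Mylk kept a higher mean in Snail cKO than in KPC tumours. The values lay between 0.79 and 5.03 for Actg2, 0.56 and 4.40 for Des, 0.89 and 5.16 for Myh11, and 0.03 and 2.68 for Mylk.

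**Figure D2:**
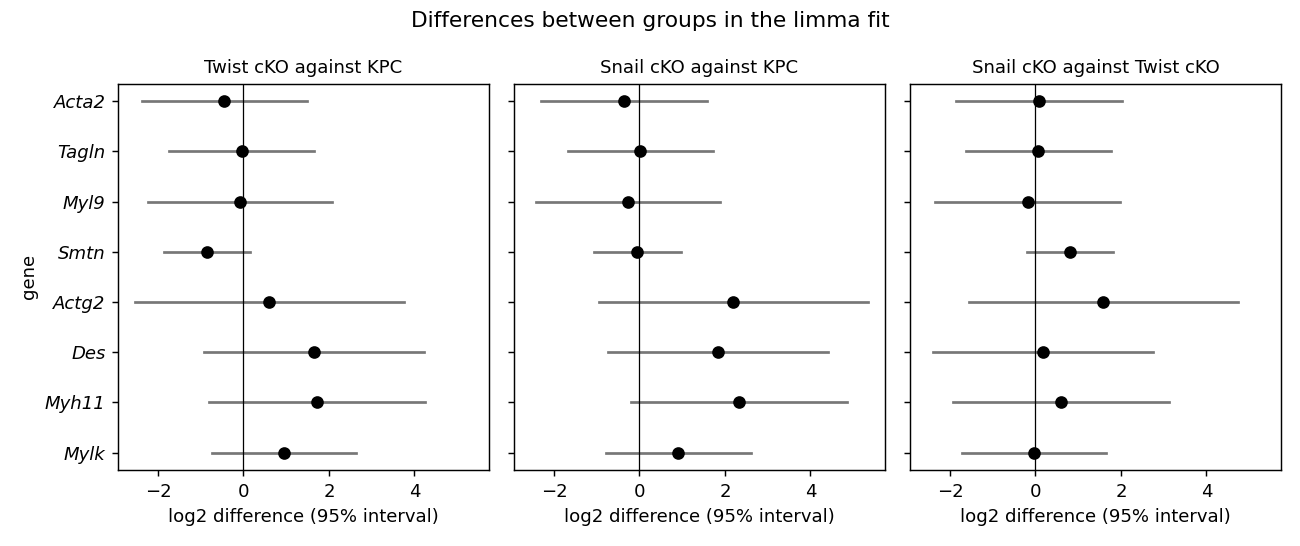
Difference in log2 intensity (horizontal axis) of each of the 8 contractile genes (vertical axis) in 3 comparisons (left, Twist cKO against KPC; middle, Snail cKO against KPC; right, Snail cKO against Twist cKO), from the limma fit over all 9 tumours; points are estimates and bars 95% intervals. Every interval holds 0, and the widest are those of Actg2, Des and Myh11.

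**Figure D3:**
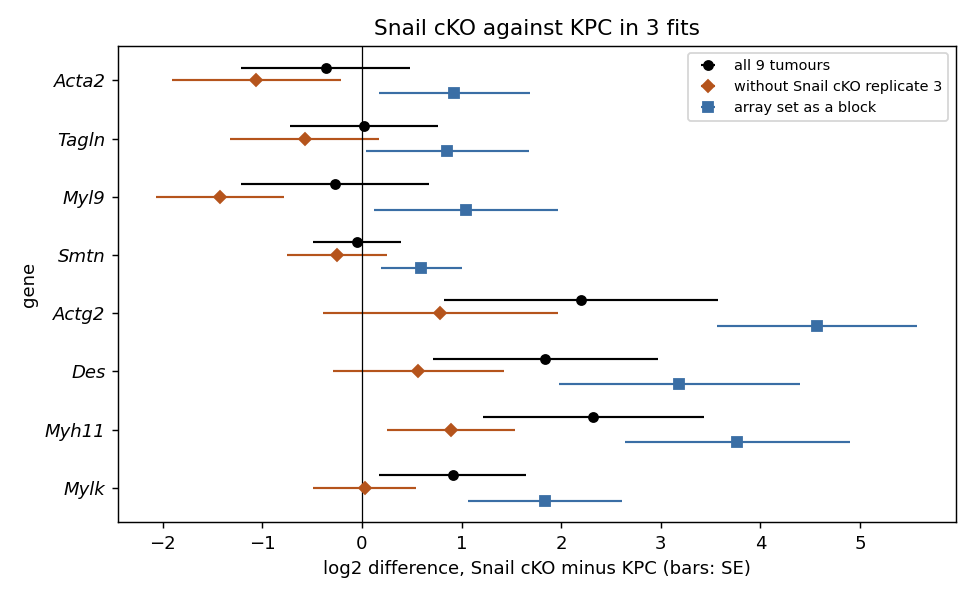
Difference in log2 intensity between Snail cKO and KPC tumours (horizontal axis) for the 8 contractile genes, with all 9 tumours (black), without Snail cKO replicate 3 (orange) and with array set as a block (blue); bars are standard errors. Acta2, Myl9 and Smtn lie below 0 in the first of these fits and above 0 with the block, and Myh11 goes between 0.89 and 3.77.

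For the Twist cKO comparison the same choices also moved the values. With array set as a block the median difference from KPC was 1.55, with Myh11 at 3.17, Des at 3.00, Actg2 at 2.98 and Mylk at 1.87, and Smtn at -0.22. Within array set 1, where Twist cKO replicate 3 is the remaining Twist cKO tumour, the median was 0.89. Without Twist cKO replicate 2, the tumour with low epithelial and high adipocyte markers, it was 0.71, with Actg2 at 1.73, Des at 1.40, Myh11 at 1.34, Acta2 at 0.42 and Smtn at -0.44. Without Twist cKO replicate 3 it was -0.27. Des, Myh11 and Mylk kept a higher mean in Twist cKO than in KPC tumours under every setting run, between 1.09 and 3.00 for Des, 0.76 and 3.17 for Myh11, and 0.62 and 1.87 for Mylk, with limma adjusted p-values of 0.726 or more.

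Between the cKO groups, 0 of the 8 genes differed (limma, 0% of all genes). Actg2 averaged 10.56 ± 2.46 in Snail cKO tumours and 8.97 ± 2.10 in Twist cKO tumours, a difference of 1.59 (SE 1.38), and Smtn 9.68 ± 0.45 and 8.87 ± 0.85 in the same order, a difference of 0.81 (SE 0.44, 95% interval -0.20 to 1.82). The remaining 6 differences lay between -0.18 for Myl9 and 0.60 for Myh11. The mean was higher in Snail cKO tumours for 6 of the 8, against 52.2% of all genes, with a median of 0.13, against 0.02 over all genes. Without Snail cKO replicate 3 the median was -0.72, with Des at -1.10, Mylk at -0.92 and Myh11 at -0.82, and without Twist cKO replicate 2 as well it was -0.96. Groups without overlap occurred in 0 of the 8, against 8.22% of all genes, and unadjusted p-values under 0.05 in 0 of the 8, against 3.78%. With both cKO groups averaged against KPC, Myh11 differed by 2.02 (SE 0.96, limma adjusted p = 0.999, exact permutation p = 0.107), Des by 1.75 (SE 0.98) and Actg2 by 1.40 (SE 1.19), and 0 of the 8 passed, where 0% of all genes did. The mean was higher in the cKO tumours for 4 of the 8, against 44.7% of all genes. Groups without overlap occurred in 0 of the 8, against 1.93%, and unadjusted p-values under 0.05 in 0 of the 8, against 2.88%.

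Genes with several probes were also compared probe by probe. The 4 kept Acta2 probes gave differences from KPC of -0.45, -0.57, 0.11 and 0.14 in Twist cKO tumours and of -0.36, -0.30, -0.02 and 0.33 in Snail cKO tumours. The 3 kept Mylk probes gave 0.94, 0.95 and 1.46 for Twist cKO against KPC tumours and 0.91, 0.70 and 1.39 for Snail cKO, all on the side of a higher mean than in KPC tumours. With the probe that gave 1.46, a dimmer one than that used for the gene, every Twist cKO tumour was above every KPC tumour (exact permutation p = 0.1, limma adjusted p = 0.988 over all kept probes). Groups without overlap occurred in 8.06% of all genes in this comparison, and the other kept Mylk probes had groups that overlapped. The 3 kept Smtn probes gave -0.86, -1.06 and -0.38 for Twist cKO and -0.05, -0.24 and 0.18 for Snail cKO. The other 6 probes of Acta2, Myh11, Tagln, Smtn and Mylk were above background on at most 2 arrays.

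How the 8 genes varied together over the 9 tumours was tested in all 28 pairs, with exact permutation tests and Benjamini-Hochberg adjustment over the 28. The permutations ran over all 9 tumours without regard to group, so a group difference or a shared high tumour also counts as a relation. Because the members were chosen with earlier results of these data known, these p-values serve as a description. Myh11 and Mylk had the closest relation (Pearson r = 0.92, exact permutation p = 0.00125, adjusted p = 0.0213; Spearman rho = 0.77, p = 0.0214, adjusted p = 0.0749). Myh11 and Des (r = 0.89, rho = 0.83) and Des and Mylk (r = 0.89, rho = 0.73) passed for r at the same adjusted p of 0.0213, as did Acta2 and Myl9 (r = 0.85, rho = 0.87), while Tagln and Actg2 (r = 0.79, rho = 0.90) had an adjusted p of 0.0478 by the same exact test. By rho, 5 pairs passed at an exact adjusted p of 0.0463, namely Acta2 with Myl9 and with Actg2, Myh11 with Des, and Tagln with Actg2 and with Mylk. Without the 2 tumours farthest from the median of the first gene of the pair, r was 0.74 for Myh11 and Mylk, 0.67 for Myh11 and Des, 0.62 for Des and Mylk, 0.88 for Acta2 and Myl9, and 0.82 for Tagln and Actg2. Acta2 and Myh11 had an r of 0.22 (exact permutation p = 0.583), which was -0.32 without Snail cKO replicate 3 and 0.79 without the 2 tumours farthest from the median of Acta2. Its value thus turned on which tumours were kept. The median r of the 28 pairs was 0.68 over 9 tumours and 0.40 over the 8 left without that tumour. The 5 and 4 tumours of the array sets are too few for a separate correlation in each. With the mean of its array set taken from every value, an alternative chosen after seeing the data, r over the 9 tumours was 0.93 for Myh11 and Mylk, 0.89 for Myh11 and Des, and 0.89 for Des and Mylk. It was 0.77 for Acta2 and Myl9, 0.75 for Tagln and Actg2 and 0.27 for Acta2 and Myh11. The median of the 28 pairs was then 0.67.

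These genes did not hold like ranks in every tumour, with Twist cKO replicate 2 and KPC replicate 1 given here as examples. In Twist cKO replicate 2, Actg2, Acta2 and Smtn were at their lowest of all 9 tumours, while Des and Myh11 were at their second highest. In KPC replicate 1, Acta2 (12.76) and Myl9 (9.08) lay near the middle of their range, while Des, Mylk and Tagln were at their lowest. The median deviation of the fibroblast and matrix genes, 12 tested of 13 listed, was -1.45 in Twist cKO replicate 2 and 0.96 in KPC replicate 1, and that of the endothelial genes, 8 of 8, was 0.91 in Twist cKO replicate 2 and -1.06 in KPC replicate 1. Whether these markers play a part in the contractile values was not tested.

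**Figure D4:**
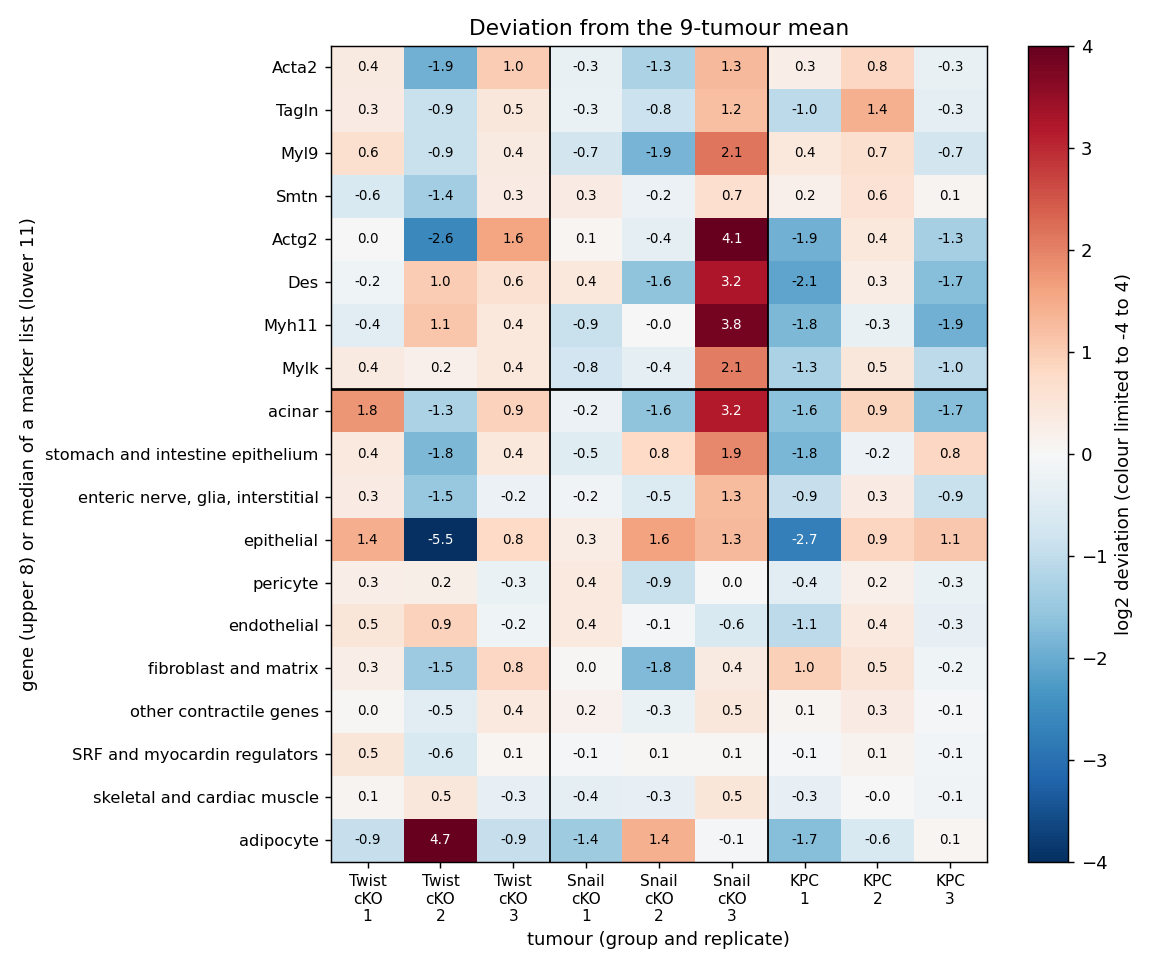
Deviation of each tumour from the 9-tumour mean on the log2 scale (colour, with the value printed) for the 8 contractile genes (upper rows) and for the median of 11 marker lists (lower rows), with Twist cKO, Snail cKO and KPC tumours in columns 1 to 9. Snail cKO replicate 3 stands out for Actg2, Myh11 and Des and also for acinar genes (3.16), and Twist cKO replicate 2 for low epithelial and high adipocyte genes.

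Snail cKO replicate 3 was the highest tumour for 7 of the 8 genes and for 646 of the 11537 genes (5.6%). Its mean deviation over the 8 genes was 2.31, against 0.65 or less in the other 8 tumours. The excess was not even across the members, with 4.1 for Actg2, 3.8 for Myh11 and 3.2 for Des, but 1.3 for Acta2, 1.2 for Tagln and 0.7 for Smtn. Some other contractile and cytoskeletal genes, picked after their values were seen, were high there too. Pdlim3, a Z-disc and dense-body protein, was at 10.70 (8.28 or less elsewhere). Synm, an intermediate filament partner of desmin, was at 8.39 (6.78 or less elsewhere). That list as a whole, with 17 genes tested, had a median deviation of 0.46 in Snail cKO replicate 3, next to 0.38 in Twist cKO replicate 3.

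Genes of gut epithelium and of acinar pancreas were high in the same tumour. Of the 16 listed genes of stomach and intestine epithelium, 12 were above background in it, with a median deviation of 1.92 over the 10 tested, against -0.49 and 0.81 in the other Snail cKO tumours, -1.79 to 0.41 in Twist cKO tumours and -1.84 to 0.84 in KPC tumours. Several of them, singled out here after their values were seen, were far above every other tumour, namely Muc2, the mucin of intestinal goblet cells, at 12.50 (6.34 or less elsewhere) and Sis, sucrase-isomaltase of the intestinal brush border, at 10.70 (5.95 or less elsewhere). Apoa4, an apolipoprotein of intestinal absorptive cells, had raw signals of 5290, 1410.2 and 3354.4 with its 3 probes, against at most 147.3 elsewhere, and Alpi, intestinal alkaline phosphatase, 817.1, against at most 112.6. The defining markers Fabp2, Cblif and Atp4b were above background in 0 of 9 tumours. The list of enteric nerve, glia and interstitial cell genes had a median deviation of 1.27 in it (6 tested of 13), against -1.50 to 0.32 elsewhere, with Vip, a peptide of gut neurons, at 8.87 (5.39 or less elsewhere) and S100b and Gfap at background in all 9. Pericyte genes (8 of 9 tested) lay at 0.02 and endothelial genes at -0.61 in this tumour, so these lists were not raised in it. Of 15 skeletal and cardiac muscle genes 3 were above background in it, with a median deviation of 0.49 over the 5 tested. This was the highest of the 9 tumours, next to 0.46 in Twist cKO replicate 2. Ckm, Myh1, Myh4, Myh6, Tnni3 and Nppa were at background in all 9 tumours. The part of gut tissue in the contractile values of Snail cKO replicate 3 was not tested.

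Genes outside the 10 were ranked by the Pearson correlation of their log2 values with the mean deviation of the 8 members, as a description over 9 tumours that share array sets. The closest were Spink1, the trypsin inhibitor of acinar cells (r = 0.99), Prss2, a trypsinogen (0.98), Rnase1, a secreted ribonuclease (0.98), Muc13, a cell-surface mucin of gut epithelium (0.96), Cela2a, an elastase (0.96), Cel, bile salt lipase (0.95), Reg3g, a secreted antimicrobial lectin (0.93), and Zfp750, a zinc finger factor (0.92), besides 2 genes with clone or predicted names. Without Snail cKO replicate 3, over 8 tumours, they were Prss2 (0.98), Cwc25 (0.97), Spink1 (0.96), Zbtb7b (0.96), Plscr2 (0.94), Rnase1 (0.94), Reg2 (0.94), Try10 (0.93), Cel (0.93) and Pappa (0.92). Enzymes and inhibitors of pancreatic juice were thus in both lists.

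Spink1, the closest gene, had 7.54, 4.70 and 7.47 in the Twist cKO tumours, 5.83, 4.46 and 11.89 in the Snail cKO tumours, and 4.42, 7.76 and 4.54 in the KPC tumours. It was high in Snail cKO replicate 3, intermediate in KPC replicate 2 and Twist cKO replicates 1 and 3, and low in the rest. The median deviation of the 8 acinar genes tested (of 9 listed) was 1.76, -1.26 and 0.94 in the Twist cKO tumours, -0.24, -1.61 and 3.16 in the Snail cKO tumours, and -1.64, 0.88 and -1.71 in the KPC tumours. Of the 9 listed, 3 were above background in KPC replicate 1 and Twist cKO replicate 2, and 2 in KPC replicate 3 and Snail cKO replicate 2. In each of the other tumours 8 were. The low acinar values, and every r with acinar genes given here, therefore depend on the background level. The mean deviation of the 8 contractile genes was 0.07, -0.67 and 0.65 in the Twist cKO tumours, -0.27, -0.83 and 2.31 in the Snail cKO tumours, and -0.90, 0.54 and -0.91 in the KPC tumours. As a description, chosen after the ranking was seen, these 2 measures had a Pearson r of 0.93 and a Spearman rho of 0.95 over 9 tumours, and 0.90 and 0.93 over the 8 without Snail cKO replicate 3. The median r of the acinar genes with the contractile mean was 0.90 over 9 tumours and 0.83 over 8, the highest of the 14 lists in both. It was 0.51 over 9 and 0.16 over 8 for stomach and intestine epithelium, 0.51 and 0.17 for enteric cells, and 0.47 and 0.30 for mesothelial genes. It was 0.38 and 0.39 for epithelial genes, 0.36 and 0.33 for the other contractile and cytoskeletal genes, 0.36 and 0.39 for fibroblast and matrix genes, 0.21 and 0.24 for pericyte genes and -0.12 and 0.20 for endothelial genes.

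**Figure D5:**
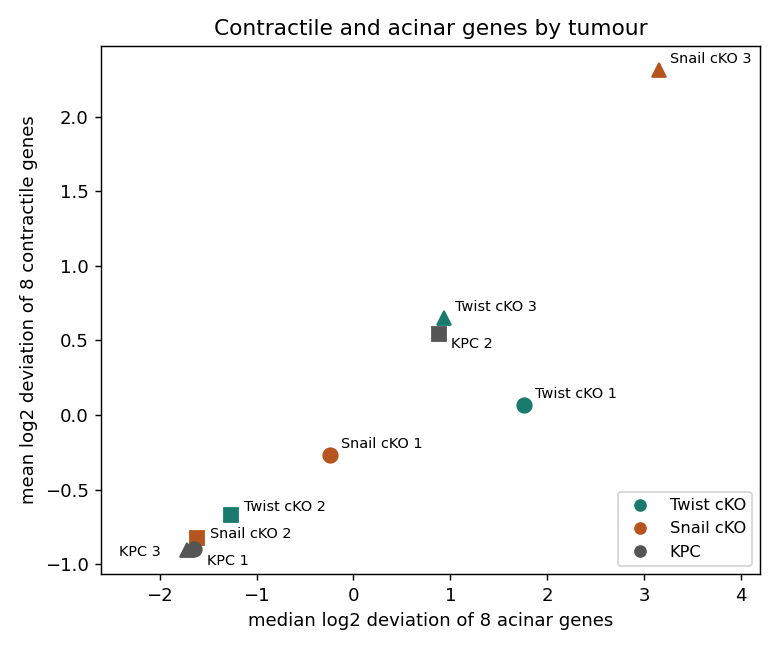
Mean log2 deviation of the 8 contractile genes from their 9-tumour means (vertical axis) against the median log2 deviation of 8 acinar genes (horizontal axis), 1 point a tumour, coloured by group and shaped by replicate. Snail cKO replicate 3 lies at 3.16 and 2.31, and KPC replicates 1 and 3 and Snail cKO replicate 2 lie at the low end of both.

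Of 21 other contractile and cytoskeletal genes 17 were tested, and 0 passed in any comparison, with a higher mean for 6 of the 17 in Twist cKO than in KPC tumours (median difference -0.11, against 43.7% and -0.07 over all genes). The mean was higher for 8 in Snail cKO than in KPC tumours (-0.08, against 46% and -0.04). Between the cKO groups the mean was higher in Snail cKO than in Twist cKO tumours for 13 of the 17 (median 0.23, against 52.2% and 0.02). Their median deviation in Snail cKO replicate 3 was 0.46, against 2.10 for the 8 members. Flnc, a muscle filamin, averaged 7.84 ± 2.47 in Twist cKO tumours and 9.63 ± 1.11 in KPC tumours (difference -1.79, SE 1.26), with 5.04 in Twist cKO replicate 2. Itga7, the laminin-binding integrin of muscle, averaged 6.27 ± 1.34 in Snail cKO tumours and 4.92 ± 0.43 in KPC tumours, of which 1 of 3 was above background (difference 1.36, SE 0.63), with its highest value, 7.81, in Snail cKO replicate 1. Pgm5, a protein of muscle adhesion sites, averaged 6.13 ± 0.57 in Snail cKO tumours and 4.71 ± 0.27 in Twist cKO tumours (limma adjusted p = 0.986). Named for its small p in the list, Pgm5 had groups without overlap here, as did 8.22% of all genes. Its probe was above background in 3 of 3 Snail cKO and 0 of 3 Twist cKO tumours, so the Snail cKO mean was at least 2.22-fold higher. This bound was counted against the lowest signal above background on each Twist cKO array or the probe's own signal where that was higher.

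Of 19 genes that signal contraction 9 were tested, and 0 passed in any comparison. Those named here were among the smallest p of the list. Groups without overlap occurred in 8.06% of all genes for Twist cKO against KPC and in 8.22% for Snail cKO against Twist cKO. Ppp1r12a, the myosin-binding subunit of the phosphatase that opposes myosin light chain kinase, averaged 8.26 ± 0.35 in Twist cKO tumours and 9.17 ± 0.40 in KPC tumours, with all Twist cKO tumours below all KPC tumours (difference -0.92, SE 0.31, limma adjusted p = 0.978). Agtr1a, an angiotensin receptor of vascular muscle, averaged 5.87 ± 0.81 in Twist cKO tumours and 4.87 ± 0.42 in KPC tumours, without overlap and with 1 of 3 KPC tumours above background (difference 1.00, SE 0.43, limma adjusted p = 0.978), and was highest, at 6.80, in Twist cKO replicate 2. Gucy1a1, a subunit of the nitric oxide receptor, was also highest in that tumour, at 10.21, against 8.01 or less elsewhere. Rock1, a kinase that inhibits the phosphatase, averaged 7.87 ± 0.12 in Snail cKO tumours and 8.29 ± 0.20 in Twist cKO tumours, without overlap (difference -0.43, SE 0.24). The mean was higher in Snail cKO than in Twist cKO tumours for 1 of the 9, against 52.2% of all genes, with a median difference of -0.43. Against KPC it was higher in Twist cKO tumours for 6 of the 9 (median 0.20, against 43.7% and -0.07 over all genes). In Snail cKO tumours it was higher than in KPC tumours for 3 (median -0.23, against 46% and -0.04 over all genes).

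Among the transcription factors upstream of the contractile genes, Srf had a narrow range, with 9.41, 9.36 and 9.34 in the Twist cKO tumours, 9.21, 9.37 and 9.27 in the Snail cKO tumours, and 9.11, 9.23 and 9.15 in the KPC tumours. Every Twist cKO tumour was thus above every KPC tumour by a small margin (difference 0.21, SE 0.21, limma adjusted p = 0.978, exact permutation p = 0.1), where 8.06% of all genes had groups without overlap. Myocd, myocardin, averaged 5.04 ± 0.51 in Twist cKO, 5.08 ± 0.32 in Snail cKO and 5.33 ± 0.27 in KPC tumours, close to background. Mrtfa, a myocardin-related factor, averaged 5.30 ± 0.40, 5.01 ± 0.29 and 5.04 ± 0.31 in the same order, and Mrtfb was at background on 9 of 9 arrays. Klf5, a zinc finger factor of gut epithelium and of growing smooth muscle, averaged 9.60 ± 3.75 in Twist cKO and 11.44 ± 1.60 in KPC tumours, with 5.28 in Twist cKO replicate 2. Fhl2, a LIM protein that binds SRF, averaged 8.76 ± 2.00 in Twist cKO and 9.73 ± 0.09 in KPC tumours. Of 13 such regulators 11 were tested and 0 passed, with a median difference from KPC of -0.02 in Twist cKO and -0.05 in Snail cKO tumours. Their median deviation was 0.06 in Snail cKO replicate 3, the tumour with the highest contractile genes, and -0.61 in Twist cKO replicate 2.

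Among the fibroblast and matrix, pericyte and endothelial genes, 0 passed in any comparison. Single genes named here were among the smallest p of their lists. For Snail cKO against KPC, groups without overlap occurred in 8.69% of all genes. Of the 12 fibroblast and matrix genes tested, the mean was higher in Snail cKO than in KPC tumours for 1 and lower for 11 (median -0.66, against 46% and -0.04 over all genes). It was higher in Twist cKO than in KPC tumours for 2 (median -0.52, against 43.7% and -0.07 over all genes). The lowest tumours were Snail cKO replicate 2 (median deviation -1.78), whose array had the fewest probes detected, and Twist cKO replicate 2 (-1.45). The other Snail cKO tumours had 0.04 and 0.37, the other Twist cKO tumours 0.27 and 0.82, and the KPC tumours 0.96, 0.52 and -0.19. Fap, a protease of activated fibroblasts, averaged 5.57 ± 0.64 in Snail cKO tumours and 7.38 ± 0.43 in KPC tumours, without overlap (difference -1.81, SE 0.39, limma adjusted p = 1.00, exact permutation p = 0.1). Its probe was above background in 2 of 3 Snail cKO tumours, so the size of this difference depends on the background level. Of the 8 pericyte genes, 5 had a higher mean in Snail cKO than in KPC tumours (46% of all genes), among them Rgs5, a regulator of G protein signalling in pericytes, with 6.99 ± 1.82 in Snail cKO and 5.33 ± 0.40 in KPC tumours (difference 1.66, SE 0.79). Rgs5 was above background in 2 of 3 Snail cKO tumours. Of the 9 pericyte genes listed, 5 were above background in Snail cKO replicate 2 and 8 in every other tumour. Notch3, a Notch receptor of pericytes and vascular muscle, averaged 6.39 ± 0.67 in Snail cKO and 7.09 ± 0.27 in KPC tumours, with all Snail cKO tumours below all KPC tumours (difference -0.70, SE 0.41, exact permutation p = 0.1). Of the 8 endothelial genes, 7 had a higher mean in Twist cKO than in KPC tumours (median 0.63, against 43.7% of all genes). Against KPC the Snail cKO mean was likewise higher for 7 (median 0.28, against 46% of all genes). With both cKO groups averaged it was higher for 8 (median 0.45, against 44.7% of all genes). Cldn5, a tight junction protein of vessels, averaged 10.42 ± 1.27 in Twist cKO, 9.46 ± 0.92 in Snail cKO and 8.70 ± 1.36 in KPC tumours (difference of Twist cKO from KPC 1.71, SE 0.84).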

How the data were processed

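Bead intensities of 45281 probes on 9 arrays were deposited by the authors, per the file headers as an average signal and a detection p-value for each probe. From its values, this intensity was linear and not normalized. On Illumina arrays the detection p-value ranks a probe against negative controls. Per the labels' protocols, RNA was extracted with Trizol and made into biotin-labelled cRNA, and the submitters' processing notes name GenomeStudio 5.0. Another table of intensity values, also deposited by the authors, was a straight-line function of the first on each array and served as an alternative, with values floored at 16. Its medians were 21.7, 22.4 and 11.2 in Twist cKO, 21.7, 23.3 and 9.3 in Snail cKO and 14.6, 13.7 and 17.3 in KPC tumours, and its scaling and background subtraction are not given.

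Probes were named through the platform annotation (a single symbol for 34885 probes, several for 18, none for 10378), and 34807 matched RefSeq by Entrez number. Intensities were background-corrected and quantile-normalized to log2 with neqc (offset 16) of limma 3.58.1 in R 4.3.3, with the data.table package at version 1.17.8. Where several probes of a gene were kept, the one with the highest mean stood for it. One model with a mean for each group took in the 9 arrays (lmFit, eBayes, two-sided), with Benjamini-Hochberg adjustment over 11537 genes. The script was tested on simulated data. Groups came from the genotype labels. Their number, 3 tumours a group, limits the precision, and p-values reflect the spread among tumours. Members and gene lists were chosen with earlier results of these data known. Named genes were the members, up to 4 of smallest p from each list on contraction and up to 2 from each cell type list in every comparison, the regulators Srf, Myocd, Mrtfa and Mrtfb, markers at background, the 10 genes most like the members' mean over 9 and over 8 tumours, Twist1 and Snai1, with examples among them picked after their values were seen. Alternatives covered background correction, normalization, filters, probe choice, array set, the test and tumours left out.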

Additional observations from a re-analysis of the deposited data

How the results depend on the processing

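Of the 24 single-gene differences (8 genes in 3 comparisons), 16 turned sign under at least 1 setting, and the smallest limma adjusted p of any setting was 0.605. Single-gene values of both cKO groups against KPC were not recomputed. No paired analysis was possible because the labels number the mice 1 to 9 and no number is shared between groups. Leaving out Snail cKO replicate 3 shrank by over 1.5 times or turned 10 of the 24, Twist cKO replicate 2 did so for 8, KPC replicates 1 and 2 for 6 each, Snail cKO replicate 2 for 5, Twist cKO replicate 1 for 4, Twist cKO replicate 3 and Snail cKO replicate 1 for 3 each, and KPC replicate 3 for 1. The cause of the sign changes below was not tested.

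With tumours left out, 1 at a time or Snail cKO replicate 3 and Twist cKO replicate 2 together (an alternative chosen after seeing the data), Twist cKO against KPC ranged from -1.05 to 0.42 for Acta2, -0.35 to 1.74 for Actg2, -0.51 to 0.38 for Myl9 and -0.57 to 0.66 for Tagln. Snail cKO against KPC ranged from -1.06 to 0.23 for Acta2, -1.43 to 0.59 for Myl9, -0.25 to 0.19 for Smtn and -0.58 to 0.72 for Tagln. Snail cKO against Twist cKO ranged from -1.47 to 0.69 for Acta2, -0.95 to 2.55 for Actg2, -1.10 to 1.33 for Des, -0.82 to 1.52 for Myh11, -1.81 to 0.67 for Myl9, -0.98 to 0.49 for Mylk and -0.96 to 0.50 for Tagln. Leave-one-out counts of genes called ranged from 0 to 3 in Twist cKO against KPC and from 0 to 1 in Snail cKO against Twist cKO, in each case highest without Twist cKO replicate 1 (Fcer1g, Gdpd3 and Thumpd1, then Thumpd1). They were 0 in the other 2 comparisons.

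With the array set as a block, Twist cKO against KPC had Acta2 at 0.84, Myl9 at 1.23, Tagln at 0.80 and a median of 1.55, and Snail cKO against KPC had Acta2 at 0.93, Myl9 at 1.04 and Smtn at 0.59. Within array set 1, Twist cKO against KPC had Acta2 at 0.75, Myl9 at 0.24, Smtn at 0.016 and Tagln at 0.45. In the same set Snail cKO against KPC had Acta2 at 1.02, Myl9 at 2.03, Smtn at 0.36 and a median of 2.35, and Snail cKO against Twist cKO had Myl9 at 1.79 and Mylk at 1.65. The authors' processed table gave 0.21 for Myl9 and 0.29 for Tagln in Twist cKO against KPC, and 0.024 for Myl9 and 0.26 for Smtn in Snail cKO against KPC. Tagln in Snail cKO against KPC was -0.014 without background correction and -0.0081 with normexp. Other probes gave Acta2 at 0.11 and 0.14 in Twist cKO against KPC, Acta2 at 0.33 and Smtn at 0.18 in Snail cKO against KPC, and Acta2 at -0.13 in Snail cKO against Twist cKO. With every kept probe tested, 1 gene was called in Twist cKO against KPC and 1 in both cKO groups against KPC, Glrx each time. Unadjusted p-values under 0.05 numbered 152 to 916 genes in Twist cKO against KPC, 204 to 680 in Snail cKO against KPC, 242 to 832 in Snail cKO against Twist cKO and 157 to 741 in both cKO groups against KPC, over the settings run. Dim probes limit Cnn1, Synpo2 and, in KPC tumours, Myh11, Itga7 and Agtr1a, as well as Pgm5 and Twist1 in Twist cKO tumours and Fap and Rgs5 in Snail cKO tumours. They also limit most acinar genes in KPC replicates 1 and 3, Twist cKO replicate 2 and Snail cKO replicate 2.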

Other observations

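Twist cKO replicate 2, whose adipocyte genes were far above the other tumours, also had the highest level of Myl1, a light chain of fast skeletal muscle myosin, at 9.07 on the log2 scale, against 6.49 or less in the other 8 tumours. Its Pdlim3 was 8.28, the second highest after Snail cKO replicate 3, while Tpm2, a muscle tropomyosin, was 8.06 and Tpm1 10.24, both the lowest of the 9 tumours. Its endothelial genes had a median deviation of 0.91, the highest of the 9 tumours, with Pecam1, an adhesion molecule of vessels, at 10.38, against 8.74 or less elsewhere. These genes were picked after their values were seen.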
